A study of Rattus norvegicus with 4 samples.

Results

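The genes described here encode the core machinery that builds an autophagosome and fuses it with the lysosome. They were chosen by name from a list of 33 genes, which covers the ULK complex, the class III PI3-kinase complex, the ATG conjugation system, the WIPI proteins and the fusion factors. Of these, 32 had a row among the 18699 genes of the expression table. Atg2b, which encodes a lipid transfer protein, had none and was not analysed here. The 32 genes also passed the filter on low counts, which left 14519 genes for testing. RNA came from ventricular myocytes isolated from wild-type newborn Sprague Dawley rats, aged 1 to 3 days. To limit non-myocytes the primary cultures received 0.1 mM bromodeoxyuridine. One group of 2 libraries came from cells given vehicle, and the other group of 2 libraries from cells given 1 µM carfilzomib, an irreversible proteasome inhibitor, for 24 h. The labels do not tell whether libraries of one group stem from different animals or cultures. The p-values therefore reflect the spread among 4 libraries, and that spread may be technical.

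Autophagy encloses cytoplasm in a double membrane, the autophagosome, which then delivers its content to the lysosome for breakdown. The ULK kinase complex starts the process, the class III PI3-kinase complex marks the growing membrane with a phosphorylated lipid, and WIPI proteins read that mark. ATG9 vesicles and ATG2 lipid transfer supply membrane, and the ATG conjugation enzymes attach ATG8 proteins such as LC3 to it. Heart muscle cells are long-lived and rely on autophagy, beside the proteasome, to remove damaged proteins and organelles.

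The libraries held from 18655450 to 18884333 estimated counts. Cardiomyocyte markers were present in each library. Of 10 such markers 10 fell with carfilzomib. Their summed level was 20964 to 21685 CPM in the vehicle libraries and 5350 to 5582 CPM in the carfilzomib libraries. The falls were uneven, from -0.36 for Tnnt2 to -3.79 for Myh6 on the log2 scale, with a median of -1.23. Myh6, the largest part of the vehicle sum, had a mean of 9820 CPM with vehicle and 712 CPM with carfilzomib. CPM are counts scaled to library size with TMM factors. Of 8 fibroblast markers 8 fell, with sums of 27685 and 28241 CPM in the vehicle libraries and 15511 and 14787 CPM in the carfilzomib libraries. Of 6 smooth muscle markers 6 fell, with sums of 3842 and 3985 CPM against 1351 and 1307 CPM. The 6 endothelial markers summed to 70.04 to 71.3 CPM, and of these Vwf and Kdr fell and Tek rose. The 6 macrophage markers summed to 41.4 to 52.3 CPM, and of the 4 tested Cd68, Csf1r and Adgre1 fell and Cd14 rose (median -0.70 on the log2 scale). Of all these markers, 0 were at 0 in all libraries. In bulk RNA, fewer cells of a type and less RNA per cell cannot be told apart, and the part of these shifts in the results on autophagy genes was not tested.

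With carfilzomib the relative RNA level of most of the autophagosome formation genes was moderately higher. Rises and falls here are relative to the other RNA of a library, and amounts per cell are not given. In the edgeR quasi-likelihood fit, with calls at an adjusted p (Benjamini-Hochberg) under 0.05, 22 of the 32 genes rose, 0 fell and 10 did not pass. Among all genes tested 30.6% rose and 30.1% fell. At an unadjusted p under 0.05, edgeR placed 0 of the 32 genes lower, and DESeq2 and limma-voom also placed 0 lower. The median log2 fold change of the 32 genes, carfilzomib over vehicle, was 0.33, beside 0.00 over all genes tested, and their range was -0.19 to 1.20. A rise of at least 0.5 on the log2 scale that passed the test was reached by 13 of the 32 genes and by 12.8% of all genes tested.

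Both carfilzomib libraries lay above both vehicle libraries for 25 of the 32 genes and below them for 3, and the same held for 39.8% and 40.0% of all genes tested. The 3 lower genes were Wipi1, Atg10 and Stx17, and the 4 with overlapping groups were Atg3, Atg4b, Atg7 and Atg16l1, all without a call. The fitted change was above 0 for 29 of the 32 genes and for 50.2% of all genes tested. With 2 libraries against 2, an exact two-sided permutation test of a single gene cannot give a p below 0.333, so the calls rest on the fit over all genes. The standard errors of the 32 log2 fold changes ran from 0.04 for Vmp1 to 0.15 for Atg10, the gene with the fewest counts.

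**Figure D1:**
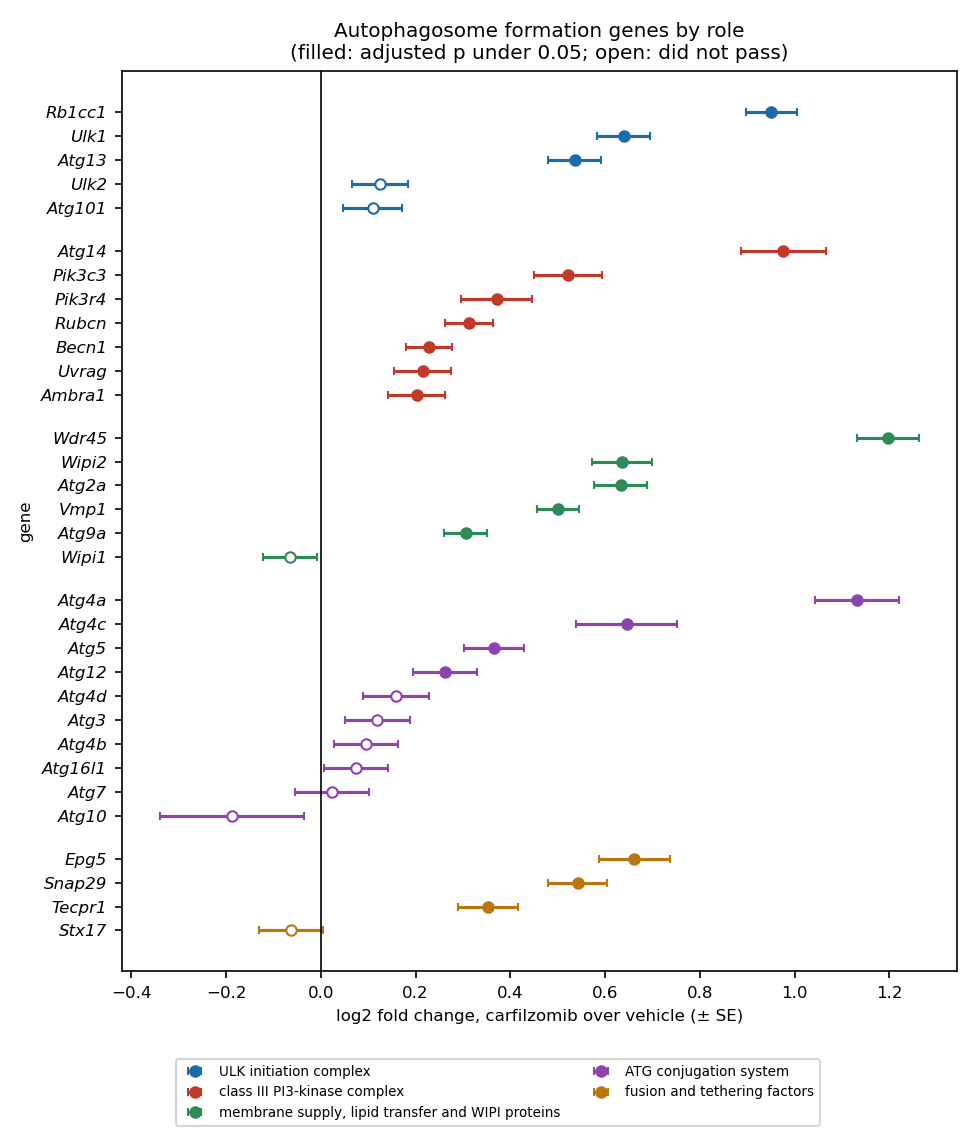
Log2 fold change of carfilzomib over vehicle (x axis, with SE bars) for each of the 32 genes (y axis), grouped and coloured by role; filled points passed the edgeR test and open points did not. The filled points lie to the right of 0, from 0.20 for Ambra1 to 1.20 for Wdr45, and 3 open points lie to the left of it.

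**Figure D2:**
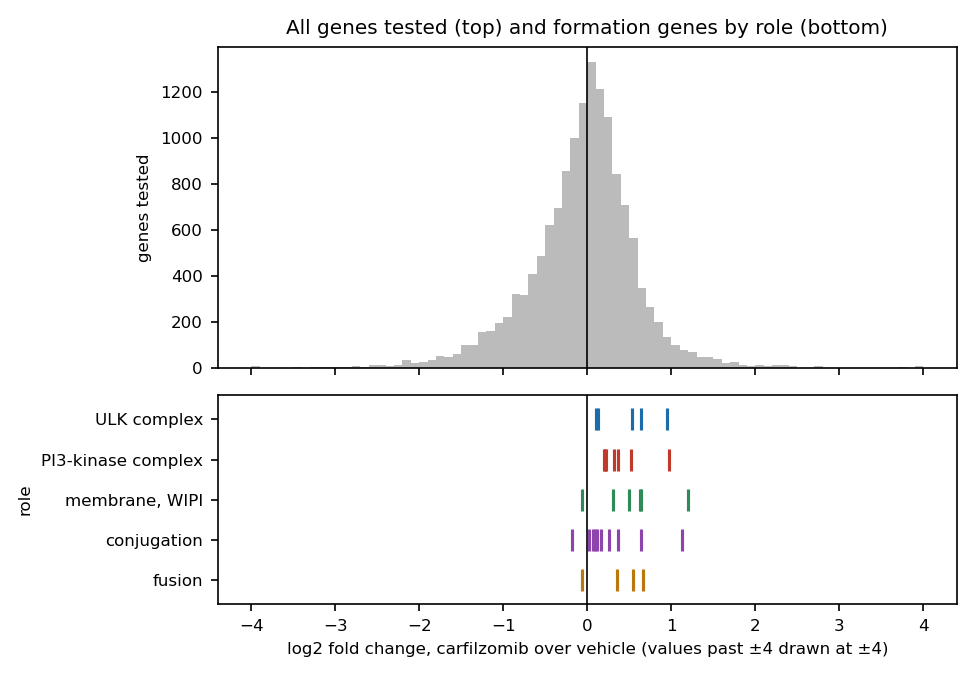
Log2 fold changes of the 14519 genes tested (top, number of genes per bin of log2 fold change) and of the 32 genes by role (bottom, 1 tick per gene). The distribution of all genes is centred on a median of 0.00, and the ticks lie between -0.19 and 1.20.

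In the ULK initiation complex 3 of 5 genes rose and the other 2 missed the threshold; the median log2 fold change was 0.54. The largest rise was that of Rb1cc1 (gene ID 312927), which encodes FIP200, the scaffold on which the kinase assembles. Its level was 64.1 and 60.7 CPM in the vehicle libraries and 122 and 119 CPM in the carfilzomib libraries. The carfilzomib libraries thus lay apart from the vehicle libraries, at a log2 fold change of 0.95 ± 0.05 (SE; edgeR adjusted p = 9.85e-10). Ulk1 (gene ID 360827), the kinase that starts autophagosome formation, was at 69.1 and 72.6 CPM with vehicle and at 114 and 107 CPM with carfilzomib. The groups did not overlap, and the gene rose by 0.64 ± 0.06 (SE) on the log2 scale (edgeR adjusted p = 1.22e-07). Atg13 (gene ID 362164), the adaptor that links the kinase to FIP200, was at 60.4 and 61.6 CPM with vehicle and at 89.5 and 87.4 CPM with carfilzomib. It rose by 0.54 ± 0.06 (SE) on the log2 scale, with an edgeR adjusted p of 8.65e-07.

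The remaining genes of the complex moved little. Ulk2, a kinase closely related to Ulk1, was at 64.5 and 63.3 CPM with vehicle and at 71.8 and 67.7 CPM with carfilzomib, so that both carfilzomib libraries were higher. That difference, 0.13 ± 0.06 (SE) on the log2 scale, missed the threshold (edgeR adjusted p = 0.0787). Scaled by library size alone, Ulk2 had a log2 fold change of 0.16 and an edgeR adjusted p of 0.0297. Atg101, which stabilises ATG13, differed by 0.11 ± 0.06 (SE) on the log2 scale (edgeR adjusted p = 0.141).

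All 7 listed genes of the class III PI3-kinase complex rose, with a median of 0.31. These comprise the catalytic subunit, its regulatory subunit and the core subunit encoded by Becn1. The others are the subunits that direct the complex to autophagosomes or endosomes, and 2 further binding partners. Atg14 (gene ID 305831), the subunit specific to autophagosome formation, was at 11.4 and 12.2 CPM with vehicle and at 23.5 and 22.8 CPM with carfilzomib. This transcript, with Atg10 one of the 2 lowest of the 32 per length in the vehicle libraries, rose 1.97-fold, or 0.98 ± 0.09 (SE) on the log2 scale (edgeR adjusted p = 2.24e-07). Pik3c3 (gene ID 65052), the lipid kinase VPS34, was at 22.6 and 21.5 CPM with vehicle and at 31.0 and 32.3 CPM with carfilzomib. Here too the groups stood apart, by 0.52 ± 0.07 (SE) on the log2 scale (edgeR adjusted p = 1.52e-05).

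The other 5 rose by less than 0.4 on the log2 scale. Pik3r4, which encodes the regulatory subunit VPS15, rose by 0.37. Its gene span overlaps that of the abundant Rpl29 in the RefSeq annotation, and Rpl29 had a log2 fold change of -0.35. Rubcn, an inhibitor of autophagosome maturation, rose by 0.31, and Becn1, the Beclin 1 core subunit, by 0.23. Uvrag, the subunit of the endosomal form of the complex, rose by 0.22 and Ambra1, a Beclin 1 partner and ubiquitin ligase adaptor, by 0.20. The 2 last calls were the least secure of the complex. Under DESeq2 the adjusted p was 0.0511 for Uvrag and 0.0718 for Ambra1. Without carfilzomib replicate 1 the edgeR adjusted p was 0.0642 for Uvrag and 0.0540 for Ambra1, and without vehicle replicate 1 it was 0.0544 for Ambra1. Atg14, Becn1 and Uvrag had estimated counts with decimals, whose origin is not given, so their values are less certain.

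Among the genes of membrane supply, lipid transfer and lipid reading 5 of 6 rose, and the median was 0.57. Wdr45 (gene ID 302559), which encodes the WIPI4 protein that binds ATG2, had the largest log2 fold change of the 32 genes. It was at 26.6 and 24.1 CPM in the vehicle libraries and at 57.5 and 58.8 CPM in the carfilzomib libraries. The level thus rose 2.29-fold, a log2 fold change of 1.20 ± 0.07 (SE) with an edgeR adjusted p of 7.5e-10. Wipi2 (gene ID 288498), which recruits the ATG16L1 complex to the membrane, was at 38.9 and 36.3 CPM with vehicle and at 57.2 and 59.5 CPM with carfilzomib. Both carfilzomib libraries were higher, by 0.64 ± 0.06 (SE) on the log2 scale (edgeR adjusted p = 6.01e-07). Wipi1, the founding member of the same family, did not follow. It was at 77.1 and 78.0 CPM with vehicle and at 76.4 and 71.998 CPM with carfilzomib, a log2 difference of -0.06 ± 0.06 (SE; edgeR adjusted p = 0.349). Wipi1 had counts with decimals, and its span overlaps that of Arsg in the RefSeq annotation. Arsg had a log2 fold change of 0.73, at means of 9.75 CPM with vehicle and 16.1 CPM with carfilzomib.

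Atg2a (gene ID 689688), the lipid transfer protein that bridges the growing membrane and the endoplasmic reticulum, was at 56.4 and 56.0 CPM with vehicle and at 85.8 and 88.4 CPM with carfilzomib. Libraries of a group lay close together, and the rise was 0.63 ± 0.06 (SE) on the log2 scale (edgeR adjusted p = 1.59e-07). Vmp1 (gene ID 192129), a lipid scramblase of the endoplasmic reticulum, was the most abundant of the 32 genes per length. It was at 161 and 169 CPM with vehicle and at 229 and 238 CPM with carfilzomib, with no overlap between the groups. That is a log2 fold change of 0.50 ± 0.04 (SE), with an edgeR adjusted p of 1.54e-07. Atg9a, the scramblase of the vesicles that seed the membrane, rose by 0.31 on the log2 scale.

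Of the 10 genes of the ATG conjugation system 4 rose and 6 missed the threshold. The median was 0.14, and both large rises were in the ATG4 family. ATG4 proteases trim ATG8 proteins before conjugation and release them from lipid afterwards. Atg4a (gene ID 678769) was at 11.7 and 13.2 CPM in the vehicle libraries and at 26.6 and 27.97 CPM in the carfilzomib libraries. It rose 2.19-fold, a log2 fold change of 1.13 ± 0.09 (SE) with an edgeR adjusted p of 4.17e-08. Atg4c (gene ID 313391) was at 14.4 and 11.5 CPM with vehicle and at 21.0 and 19.6 CPM with carfilzomib. The vehicle libraries differed more from each other than the carfilzomib libraries did, and the log2 fold change was 0.65 ± 0.11 (SE; edgeR adjusted p = 1.02e-04). Leaving out 1 library at a time gave values from 0.49 to 0.82. Atg4b, the protease of broadest activity, overlapped between the groups in CPM, at a log2 difference of 0.09 ± 0.07 (SE; edgeR adjusted p = 0.242). Atg4d had 0.16 ± 0.07 (SE), with an edgeR adjusted p of 0.0604. Its counts had decimals, and its span overlaps that of Kri1, which had a log2 fold change of 0.29. Scaled by library size alone Atg4d had a log2 fold change of 0.19 and an edgeR adjusted p of 0.0261, and without vehicle replicate 1 these were 0.22 and 0.0341.

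Outside the ATG4 family the changes were small. Atg5 and Atg12, whose proteins are joined to each other and then bind ATG16L1, rose by 0.36 and 0.26 on the log2 scale. Atg12 was at 43.5 and 41.0 CPM with vehicle and at 48.2 and 53.1 CPM with carfilzomib, and without carfilzomib replicate 2 its log2 fold change was 0.19 and its edgeR adjusted p 0.0658. Atg16l1, which completes that complex and sets where LC3 is attached, had a log2 fold change of 0.07 ± 0.07 (SE). The enzymes of the 2 conjugation reactions did not pass either. Atg7, the E1-like enzyme of both, was at 21.2 and 22.4 CPM with vehicle and at 22.0 and 22.3 CPM with carfilzomib, with a log2 fold change of 0.02 ± 0.08 (SE). Atg3, the E2-like enzyme for LC3, had 0.12 ± 0.07 (SE), and Atg10, the E2-like enzyme for ATG12, had -0.19 ± 0.15 (SE) at 5.14 to 6.19 CPM. Atg10 had the fewest counts and the widest error of the 32 genes.

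Of the 4 factors of fusion and tethering 3 rose, and the median was 0.45. Epg5 (gene ID 364902), a tether between autophagosomes and late endosomes or lysosomes, was at 45.9 and 39.5 CPM with vehicle and at 65.0 and 70.1 CPM with carfilzomib. The 4 libraries fell into their groups, with a rise of 0.66 ± 0.08 (SE) on the log2 scale (edgeR adjusted p = 2.92e-06). Snap29 (gene ID 116500), the SNARE that pairs with syntaxin 17 on the finished autophagosome, was at 50.3 and 49.1 CPM with vehicle and at 75.2 and 69.7 CPM with carfilzomib. It rose by 0.54 ± 0.06 (SE) on the log2 scale, with an edgeR adjusted p of 2.44e-06. Tecpr1, a tether that binds the ATG5-ATG12 conjugate, rose by 0.35. Stx17, syntaxin 17 itself, was at 29.0 and 28.7 CPM with vehicle and at 27.3 and 27.9 CPM with carfilzomib. This log2 difference of -0.06 ± 0.07 (SE) missed the threshold (edgeR adjusted p = 0.437), and its counts had decimals. The counts of calls differed between the 5 roles, but those differences were not tested.

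Promoter windows from RefSeq, 250 bases before to 50 after each gene's start in the build GRCr8, were matched to 29 of the 32 genes. They were searched on both strands for letters bound by factors known to act on autophagy and stress genes. The CLEAR element of TFEB and its relatives, taken here as the exact 10 letters in capitals in the sequences of Epg5 and Snap29, reads the same on both strands and contains the E-box CACGTG. It stood in 2 of the 29 promoters and in 0.28% of the 27457 gene promoters in the table. The 2 promoters were those of Epg5 and Snap29. Both are among the 12 genes, of the 29 searched, that passed with a rise of at least 0.5. Their 250 bases before the start are shown 5′ to 3′ on the gene's strand, with the CLEAR letters in capitals, to show where the match lies. Epg5 is at chr18:73678917-73679166 (plus strand) and Snap29 at chr11:97113196-97113445 (minus strand).
Epg5: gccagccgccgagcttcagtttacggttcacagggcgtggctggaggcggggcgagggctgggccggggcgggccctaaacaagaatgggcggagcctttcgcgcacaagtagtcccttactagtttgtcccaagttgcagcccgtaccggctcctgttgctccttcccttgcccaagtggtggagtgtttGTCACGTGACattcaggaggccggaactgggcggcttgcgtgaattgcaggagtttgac
Snap29: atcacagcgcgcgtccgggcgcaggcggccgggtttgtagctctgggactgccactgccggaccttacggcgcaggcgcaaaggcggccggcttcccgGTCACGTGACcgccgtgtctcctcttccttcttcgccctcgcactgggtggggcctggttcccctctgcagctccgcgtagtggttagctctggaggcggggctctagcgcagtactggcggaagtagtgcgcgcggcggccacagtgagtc

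The E-box CACGTG stood in 5 of the 29 promoters, 17.2%, and in 7.08% of all promoters. In Epg5 and Snap29 it is the one inside the CLEAR letters. The 5 were those of Atg14, Atg3, Atg5, Epg5 and Snap29. Of these 5, Atg3 did not pass the test, beside 10 of the 32 genes. The FOXO letters GTAAACA stood in 1 of the 29 promoters, 3.45%, and in 4.13% of all promoters. The share was thus no higher than over all promoters. That 1 promoter was the one of Wdr45, for which RefSeq gives 2 starts, each with a match in its window. The 250 bases before the outer start, at chrX:17454118-17454367 (minus strand), are shown with the FOXO letters in capitals.
Wdr45: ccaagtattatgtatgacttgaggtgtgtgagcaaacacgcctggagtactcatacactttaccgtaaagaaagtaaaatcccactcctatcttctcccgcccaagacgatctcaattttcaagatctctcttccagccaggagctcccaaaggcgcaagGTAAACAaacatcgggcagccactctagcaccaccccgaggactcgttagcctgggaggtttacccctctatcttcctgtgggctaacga

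The letters TGATGNAA of the ATF4 composite element stood in 1 of the 29 promoters, again that of Wdr45, in the window of its inner start. There they overlap the FOXO letters. The share was 3.45% of the 29 promoters, beside 4.16% of all promoters. The antioxidant response element TGACNNNGC stood in 5 of 29, 17.2%, beside 13.1% of all promoters. The 5 were Atg10, Atg4b, Atg4d, Ulk2 and Vmp1. Vmp1 was the only 1 of these 5 that passed the test, beside 22 of the 32 genes. The heat shock element, in alternating GAA and TTC units, stood in 0 of 29 promoters and in 0.794% of all, and CCAAT stood in 34.5% of the 29 and in 39.6% of all. These matches describe the sequence and do not show binding. The promoters with a match are few, and a link between matches and changes in RNA was not tested.

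Levels of different genes were compared as the authors' FPKM, which are scaled to gene length. The ratio of FPKM to counts was not the same in each library for every gene. Atg7, for example, had 393 and 414 counts in the vehicle libraries, at 7.65 and 7.61 FPKM. The orders and shares below carry that uncertainty. The median of the 32 genes was 14.3 FPKM with vehicle and 18.8 FPKM with carfilzomib, beside 9.55 and 9.72 FPKM over all genes tested. In the vehicle libraries Vmp1 was highest, at 79.9 and 83.5 FPKM, followed by Becn1 at 50.01 and 51.2 FPKM, Wipi1 at 41.6 and 41.9 FPKM and Atg9a at 31.1 and 32.3 FPKM. The same 4 genes led in the carfilzomib libraries, in the same order of means. At the other end stood Atg14, at 3.35 and 3.58 FPKM, Atg10, at 3.95 and 3.50 FPKM, and Epg5, at 4.76 and 4.08 FPKM. Of the 31 pairs of neighbours in the vehicle order, 16 had libraries that did not overlap. Among those that overlapped were Atg4b, Atg12, Wdr45 and Uvrag, which follow each other in the middle of the order.

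By the group means, Atg4a, Ulk1 and Wdr45 moved up by the most places. Wdr45 was at place 11 of 32 with vehicle, at 17.8 and 15.97 FPKM, and at place 5 with carfilzomib, at 39.4 and 39.6 FPKM. Atg4a was at place 28 with vehicle, at 6.17 and 6.95 FPKM, and at place 19 with carfilzomib, at 14.3 and 15.1 FPKM. Ulk1 went from place 17 to place 10, from 13.7 and 14.3 FPKM to 22.9 and 21.8 FPKM.

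**Figure D3:**
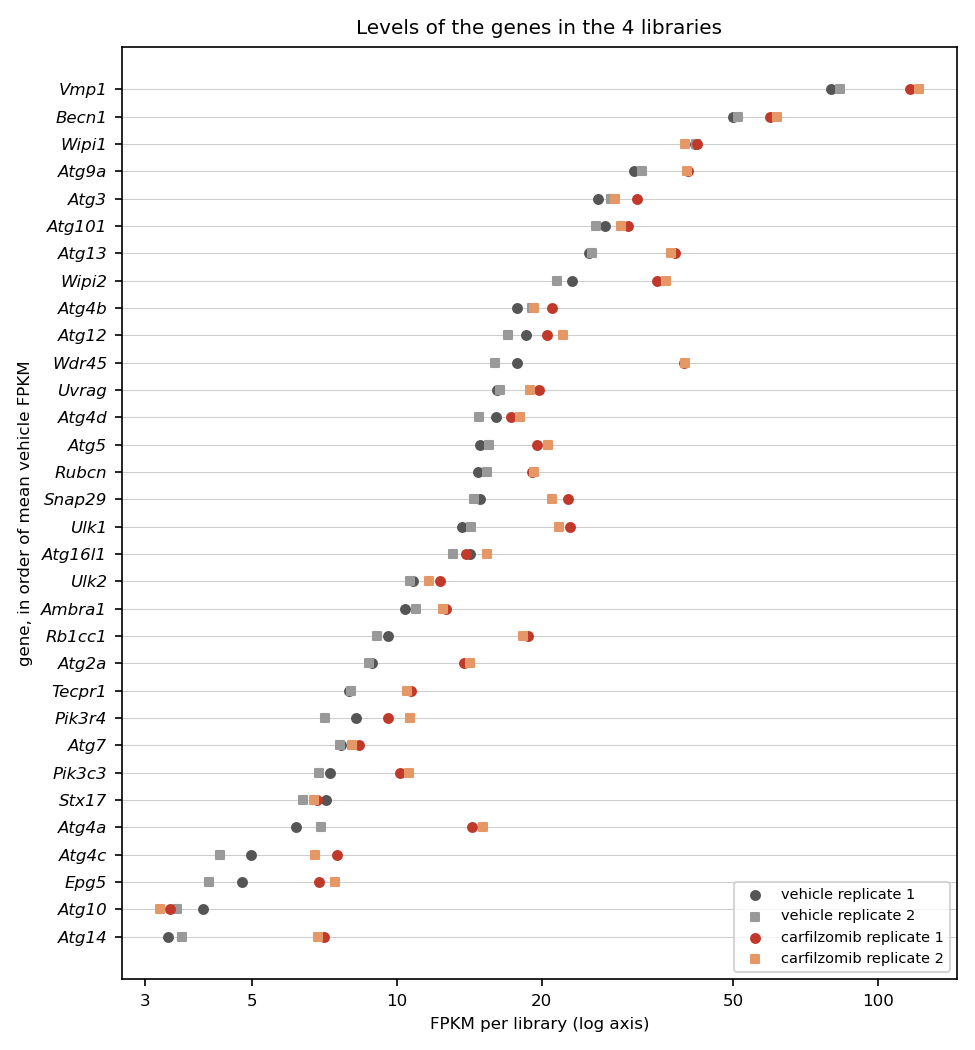
FPKM of each of the 32 genes in each of the 4 libraries (x axis, log scale), with genes in order of their mean in the vehicle libraries (y axis); grey points are vehicle and red or orange points carfilzomib libraries. The libraries of a group lie close together, and Wdr45, Atg4a, Atg14 and Rb1cc1 show the widest gaps between the groups.

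Within families of related genes, the share of the family's summed FPKM shifted most toward Atg4a, Wdr45, Ulk1 and Atg14 in both carfilzomib libraries. The shares of Wipi2 and Atg4c rose by less. No test was made of these shares. Among the 4 ATG4 genes, Atg4a held 13.7% and 15.4% of the sum in the vehicle libraries and 23.8% and 25.5% in the carfilzomib libraries. Atg4b held 39.5% and 42.3% with vehicle and 35.0% and 32.5% with carfilzomib, so that it stayed the most abundant of the 4. The sum of the family was 45.0 and 45.1 FPKM with vehicle and 60.1 and 59.1 FPKM with carfilzomib. In the WIPI family, counted with Wdr45b, the gene of WIPI3, the share of Wdr45 was 14.8% and 13.8% with vehicle and 25.1% and 25.3% with carfilzomib. The share of Wipi1 was 34.6% and 36.1% with vehicle and 26.7% and 25.4% with carfilzomib. Wipi2 held 19.3% and 18.5% with vehicle and 22.1% and 23.2% with carfilzomib. Wdr45b held 31.4% and 31.6% with vehicle and 26.1% and 26.2% with carfilzomib. Ulk1 held 55.8% and 57.3% of the summed FPKM of Ulk1 and Ulk2 with vehicle and 65.07% and 65.1% with carfilzomib. For the 2 subunits that define separate forms of the PI3-kinase complex, Atg14 held 17.2% and 17.9% of their sum with vehicle and 26.3% and 26.7% with carfilzomib, the rest being Uvrag.

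**Figure D4:**
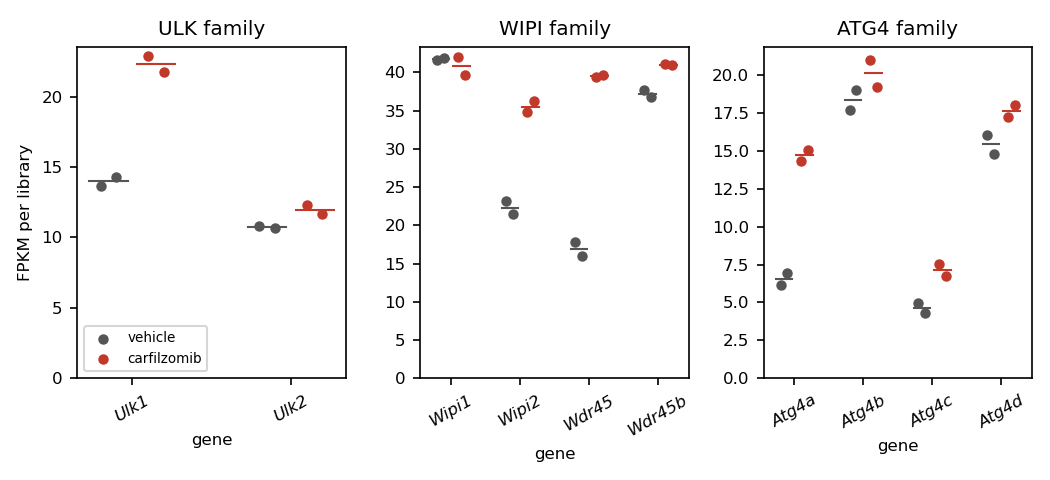
FPKM in each library (y axis, from 0) for the genes of the ULK, WIPI and ATG4 families (x axis), with vehicle in grey, carfilzomib in red and lines at the group means. The widest gaps between the groups are those of Wdr45, Wipi2, Ulk1 and Atg4a, while Wipi1 overlaps between the groups on this scale, at 41.6 and 41.9 against 42.02 and 39.7 FPKM.

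Genes that act with this machinery were read from lists outside the 33 names, and their counts stand beside the 30.6% of all genes tested that rose and the 30.1% that fell. Of 13 SNARE, Rab7 and HOPS genes of fusion with the lysosome 11 rose and 1 fell, and the median was 0.37. Vamp7, a vesicle SNARE with counts that carry decimals, rose by 0.70, and Vps33a, the SNARE-binding subunit of the HOPS tether, by 0.63 on the log2 scale. Rilp, a Rab7 effector at a low level of 3.88 to 7.47 CPM, fell by 0.65 ± 0.17 (SE). The call of Rilp is the only fall in that list, and 0 falls were called there with DESeq2, without carfilzomib replicate 1 or without vehicle replicate 2. Of 5 ATG8 genes, the substrates of conjugation, 3 rose, 1 fell and Gabarap, at 317 to 338 CPM over the 4 libraries, missed the threshold. Gabarapl2, with decimals in its counts, was at 16.4 and 20.5 CPM with vehicle and at 41.8 and 41.96 CPM with carfilzomib, a log2 fold change of 1.18. It was exceeded by Gabarapl1, at 1.73. Of the LC3 genes, Map1lc3b rose by 0.29 and Map1lc3a had -0.67.

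Of 18 tested further formation factors 9 rose and 2 fell, and the median was 0.12. Tbk1, a kinase of selective autophagy, was at 32.8 and 31.99 CPM with vehicle and at 84.9 and 82.7 CPM with carfilzomib, a log2 fold change of 1.37. Atg16l2, a relative of Atg16l1, rose by 1.09, while Atg16l1 had 0.07. Ralb, a small GTPase linked to autophagosome initiation, fell by 0.34. The count of 2 falls was 1 with DESeq2, without carfilzomib replicate 1, without carfilzomib replicate 2 and without vehicle replicate 2.

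Calls in both directions, which all genes tested also show, were made among genes upstream of the machinery. Of 22 genes of mTOR, AMPK and related regulators 11 rose and 4 fell, and the median was 0.17. Flcn, a regulator of the lysosomal Rag GTPases, rose by 0.81 on the log2 scale, and Rptor, the mTORC1 subunit that binds substrates, by 0.69. Sesn2, a leucine-sensing inhibitor of mTORC1, was at 105 and 106 CPM with vehicle and at 55.0 and 51.1 CPM with carfilzomib, a log2 fold change of -0.99. Of 9 transcription factors known to act on autophagy genes 3 rose, 3 fell and 3 missed the threshold. These shares, 33.3% in each direction, are near those over all genes tested (30.6% and 30.1%), and the median was 0.13. Nfe2l1 and Nfe2l2, which drive proteasome and antioxidant genes, each rose by 0.24, and Atf4 fell by 0.69. Tfeb was named after its values were seen, because it binds the CLEAR letters. It was at 30.4 and 33.02 CPM with vehicle and at 26.2 and 25.1 CPM with carfilzomib. The log2 fold change of Tfeb was -0.31 ± 0.07 (SE; edgeR adjusted p = 0.00173). Its relative Tfe3, named for the same reason, had 0.20 ± 0.06 (SE; edgeR adjusted p = 0.00812). For the FOXO letters, Foxo1 had -0.34 (edgeR adjusted p = 0.0107), and Foxo3, at 0.17, missed the threshold. These 2 were also named after their values were seen. The 3 falls were those of Atf4, Tfeb and Foxo1, and with DESeq2 the count of falls among these factors was 1.

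**Figure D5:**
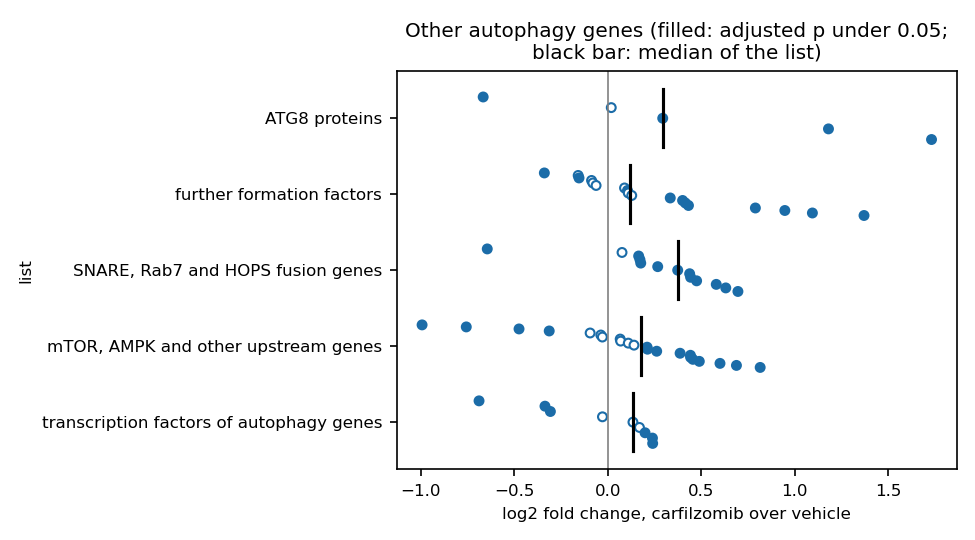
Log2 fold change of carfilzomib over vehicle (x axis) for each tested gene of 5 lists of other autophagy genes (y axis); filled points passed the edgeR test, open points did not, and the black bar is the list's median. The points of the fusion list lie mostly to the right of 0, and those of the upstream genes and the transcription factors lie on both sides.

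The authors' deposited table, which holds values for 6063 genes with a q-value under 0.05, listed 19 of the 32 genes, and each had a positive log2 fold change there. Of the genes tested here, 21.9% were listed as higher and 19.8% as lower in the authors' deposited table. Its log2 fold changes for Wdr45, Atg4a, Atg14 and Rb1cc1 were 1.20, 1.14, 0.98 and 0.96 in the authors' deposited table. The 3 genes that rose here but are not listed in the authors' deposited table were Uvrag, Ambra1 and Atg12.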

How the data were processed

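Members and gene lists were chosen with earlier results of these data known. Unnormalised estimated counts per gene were deposited. In each library 28.5% to 28.9% of genes had a value that was not whole (tolerance 1e-06); no header or label names the tool behind this. The authors also deposited FPKM, used here only to compare levels between genes. They are not TMM-scaled. The authors' deposited table of log2 fold changes with DESeq2 p-values and q-values, per the file headers, is quoted by name. The submitters' processing notes name build Rnor_6.0, HISAT, Bowtie2, featureCounts 1.6.0, cutadapt 2.0, FastQC 0.11.8, R 3.3.2 and DESeq2, without roles or order. Strandedness is not given either, so reads of overlapping genes cannot be told apart. Columns named as control were read as vehicle by their number, vehicle being the one untreated condition. A further 10 columns were not used.

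Counts were rounded and tested with edgeR 4.0.16 in R 4.3.3: filterByExpr (count of 10, total of 15), TMM factors of 0.987 to 1.01, a robust quasi-likelihood F test over 14519 genes, and Benjamini-Hochberg adjustment at 0.05. Standard errors were derived as |log2 fold change| over the root of F. Replicates differed by more than sampling noise (chi-square over its degrees of freedom was 3.36 in vehicle, 2.99 in carfilzomib). The 32 genes had mean counts of 104 to 3742. The alternatives were DESeq2 1.42.0, limma-voom (limma 3.58.1), scaling by RLE or by library size alone, testing without a filter or with a strict one (1 CPM in 2 libraries, total 50), a replicate block, each library left out, and genes with whole counts only. The scripts were tested on simulated data.

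Every gene is accounted for. Values in each library were given for genes that passed with a log2 fold change of at least 0.5 in size, and those whose call is lost in DESeq2, limma-voom or without 1 library are named. From each other list the rule takes, above a mean of 5 CPM, the 2 largest calls in the more frequent direction and the largest opposite call; among the transcription factors the counts were tied, and 2 rises and 1 fall are given. Of the list entries 1 was matched through the RefSeq gene table. Other values given in each library were chosen after they were seen.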

Additional observations from a re-analysis of the deposited data

How the results depend on the processing

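For the 32 genes the count of rises was 22 with limma-voom, RLE factors, either low-count filter setting and the replicate block, 20 with DESeq2 and 24 with library size alone, and 20 to 22 when 1 library was left out. The count of falls was 0 under each of these settings. The median log2 fold change lay between 0.31 and 0.37 across them. Among the 26 genes with whole counts in each library 19 rose, with a median of 0.37. The block changed no call of the 32 genes. Replicate numbers share only a number: across genes the deviations of same-numbered libraries had a correlation of -0.002. No call changed direction under an alternative. Library size alone moved the median of all genes to 0.04 from 0.00. In the other lists, DESeq2 called 1 fall among further formation factors in place of 2, 0 falls among the fusion genes in place of 1 and 1 fall among the transcription factors in place of 3. When 1 library was left out, the falls numbered 1 to 3 among further formation factors and 0 to 1 among fusion genes. The causes of these shifts were not tested. Fits without 1 library leave a group with 1 library, which is assumed to vary like the other group. Among the 32 genes, the smallest change that passed was 0.20 on the log2 scale; genes with smaller errors passed below it, such as Ei24 at -0.15.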
